A study of Homo sapiens with 4 samples.

Results

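The IFIT family (interferon-induced proteins with tetratricopeptide repeats) is represented by IFIT1, IFIT2, IFIT3 and IFIT5, 4 of the 19102 genes that could be named on the array. Membership followed the gene name and not a measured value of the gene. The family itself was chosen with earlier results of these arrays known, so that its counts are descriptions. Since the scanner tables hold no gene names, probes were assigned through the RefSeq accession of each probe. This gave 5 of 34127 probes, namely A_23_P52266 for IFIT1, A_23_P24004 and A_24_P304071 for IFIT2, A_33_P3283611 for IFIT3 and A_24_P30194 for IFIT5, each printed in 1 spot per array. All 5 probes were well above background on all 4 arrays, none was saturated, and none was lost to the filter on dim probes.

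PC3 is an established human prostate cancer cell line. The cells were infected for 48 h with lentivirus carrying either an shRNA against ALKBH3, an oxidative demethylase of alkylated DNA and RNA, or a control shRNA against GFP, which is not a human gene, and were then selected with puromycin. RNA was taken 48 h or 96 h past selection and measured on single-colour Agilent arrays, with 1 array for each shRNA at each time point. Virus and puromycin are thus shared by all groups, an uninfected group was not analysed here, and the labels do not name the ALKBH3 shRNA. Both shRNAs of a time point lay on 1 slide, so that the shRNAs are compared within a slide, whereas time point and slide cannot be told apart. Nothing in the sources says whether the arrays came from separate cultures, and p-values therefore measure only the spread between these arrays.

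IFIT proteins are cytoplasmic RNA-binding proteins that most cells hold at low levels until interferon or a viral RNA sensor is engaged. Type I and III interferons activate transcription factors, STAT2 and IRF9 among them, that bind interferon-stimulated response elements in the IFIT promoters, and IRF3 can act on these elements without interferon. IFIT1 recognises mRNA whose cap lacks ribose methylation and blocks its translation, IFIT2 and IFIT3 assemble with IFIT1, with IFIT3 stabilising it, and IFIT5 binds RNA ends that carry phosphates.

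The promoters are shown for where the letters of the response motif lie, and a link between the motif and the signals was not tested. The windows run from 160 bases before to 10 bases after the annotated start, on the plus strand of GRCh38.p14, with sequences from RefSeq. Capitals mark matches to GAAANNGAAA or its reverse complement TTTCNNTTTC, the core of the response element, searched on both strands. IFIT3 has 2 annotated starts, and IFIT2 has no entry in the promoter table. IFIT1B, the paralog next to IFIT1, is given for contrast of the letters only, as it was too dim to be tested.
IFIT1, chr10:89392463-89392632: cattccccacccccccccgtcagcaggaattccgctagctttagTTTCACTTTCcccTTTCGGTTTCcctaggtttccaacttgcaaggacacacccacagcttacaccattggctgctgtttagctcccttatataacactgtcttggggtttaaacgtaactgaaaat
IFIT3 upstream start, chr10:89327837-89328006: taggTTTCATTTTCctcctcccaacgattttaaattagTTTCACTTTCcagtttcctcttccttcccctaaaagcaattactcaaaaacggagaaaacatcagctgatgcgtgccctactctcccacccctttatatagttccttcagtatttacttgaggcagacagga
IFIT3 downstream start, chr10:89332369-89332538: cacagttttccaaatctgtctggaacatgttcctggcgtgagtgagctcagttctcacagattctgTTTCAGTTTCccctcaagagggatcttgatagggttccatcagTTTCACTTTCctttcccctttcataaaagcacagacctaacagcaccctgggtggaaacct
IFIT5, chr10:89414408-89414577: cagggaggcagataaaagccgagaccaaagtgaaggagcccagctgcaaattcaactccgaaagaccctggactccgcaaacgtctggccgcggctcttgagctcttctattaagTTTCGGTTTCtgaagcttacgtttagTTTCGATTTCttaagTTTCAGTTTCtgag
IFIT1B, chr10:89377896-89378065: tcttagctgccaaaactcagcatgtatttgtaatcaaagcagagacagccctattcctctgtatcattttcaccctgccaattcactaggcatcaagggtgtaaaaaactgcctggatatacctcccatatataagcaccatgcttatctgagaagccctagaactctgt

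The IFIT1 promoter and both IFIT3 promoters held 2 matches each and the IFIT5 promoter held 3, all in the TTTCNNTTTC orientation, while IFIT1B held 0. In IFIT1 they began 116 and 103 bases before the start, at the upstream start of IFIT3 156 and 122 bases before it, and at the downstream start 94 and 51 bases before it. In IFIT5 they lay closest, beginning 45, 19 and 4 bases before the start, and the last of them ran across it. Over all 35116 promoter windows of 300 bases in the table, 3.57% held at least 1 match and 0.259% held 2 or more. Counted by gene, 4.38% of genes in the table held a match, as did 19 of the 25 other interferon-stimulated genes (of a list of 30) that have an entry. A match is a description of the letters and not a measured site.

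**Figure D1:**
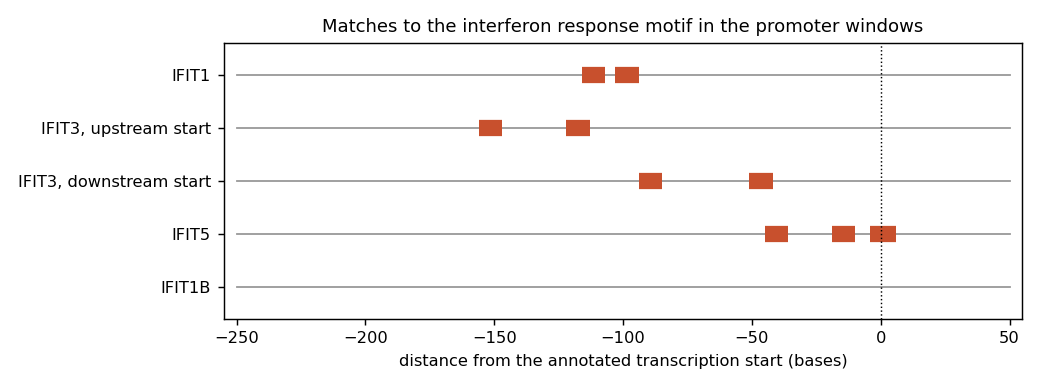
Positions of the matches to GAAANNGAAA or TTTCNNTTTC (bars) in the promoter windows of IFIT1, IFIT3, IFIT5 and IFIT1B, with the distance from the annotated start in bases on the x axis. IFIT1 and each IFIT3 start have 2 matches, IFIT5 has 3 and IFIT1B has 0.

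The knockdown itself was visible in every pair of arrays. The ALKBH3 probe A_23_P35989 had a log2 signal, taken relative to the 75th percentile of its array, of -0.63 and -0.61 in the control arrays at 48 h and 96 h, and of -2.67 and -2.68 in the knockdown arrays (log2 fold change -2.05, SE 0.11). The other ALKBH3 probe, A_33_P3225250, gave a log2 fold change of -1.63 (SE 0.13). Between 67.0% and 70.9% of probes were well above background on an array, and the 75th percentile of the processed signal lay between 2150 and 2394.

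All 5 IFIT probes were higher with ALKBH3 shRNA than with control shRNA at both time points, between 2.38-fold and 4.25-fold at 48 h and between 1.5-fold and 2.36-fold at 96 h. IFIT1 and IFIT3 passed the cutoffs used here, a 2-fold change of the mean with an unadjusted limma p below 0.05, whereas both IFIT2 probes and IFIT5 did not. These values are log2 signals or differences of them, and since every probe has its own brightness, levels are compared between arrays and not between probes.

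IFIT1, the member that binds unmethylated caps, had a processed signal of 26872 in the control and 108227 in the knockdown cells at 48 h, and of 17511 and 42364 at 96 h. On the log2 scale these were 3.64 and 5.57 at 48 h and 2.90 and 4.15 at 96 h, so both ALKBH3 shRNA arrays lay above both control arrays. The difference was 1.92 at 48 h (3.79-fold) and 1.24 at 96 h (2.36-fold), and their mean, the log2 fold change, was 1.58 (SE 0.54, limma adjusted p = 0.613). It was 0.87 without the ALKBH3 shRNA array at 48 h and 1.21 without the control array at 96 h, and the cutoffs were then missed. IFIT1 was the only member more than 2-fold higher at 96 h, and by log2 fold change it ranked 67 among 23244 probes.

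IFIT3, the partner that stabilises IFIT1, had a processed signal of 3821 in the control and 17267 in the knockdown cells at 48 h, and of 3028 and 6017 at 96 h. The log2 signals were 0.83 and 2.92 at 48 h and 0.37 and 1.33 at 96 h, again with no overlap between the shRNAs. At 48 h IFIT3 showed the largest difference of the family, 2.09 (4.25-fold), and at 96 h the difference was 0.96 (1.94-fold). The log2 fold change of 1.52 (SE 0.56, limma adjusted p = 0.637) was 0.06 below that of IFIT1. The SE does not measure the spread of a gap between 2 probes on the same arrays, and this gap was not tested. The log2 fold change of IFIT3 was 0.73 without the ALKBH3 shRNA array at 48 h and 1.29 without the control array at 96 h. It was 2.32 without the ALKBH3 shRNA array at 96 h.

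IFIT2, which joins the same complex, was read by 2 probes. Probe A_23_P24004 had a processed signal of 9054 in the control and 30072 in the knockdown cells at 48 h, and of 7179 and 11376 at 96 h, and its log2 signals of 2.07 and 3.72 at 48 h and 1.62 and 2.25 at 96 h did not overlap between the shRNAs. The difference was 1.64 at 48 h (3.12-fold) and 0.63 at 96 h (1.55-fold), and their mean was 1.14 (SE 0.52, limma adjusted p = 0.713). This probe exceeded the 2-fold limit and missed the limit on p, which it met with the authors' normalized values and with normexp background correction. The mean was 0.40 without the ALKBH3 shRNA array at 48 h and 1.87, past the cutoffs, without that at 96 h.

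The other IFIT2 probe, A_24_P304071, had a processed signal of 844 in the control and 3017 in the knockdown cells at 48 h, and of 550 and 855 at 96 h. Its log2 signals were -1.35 and 0.40 at 48 h and -2.09 and -1.49 at 96 h, and here the ALKBH3 shRNA array at 96 h fell below the control array at 48 h, the only overlap in the family. The difference was 1.75 at 48 h (3.36-fold) and 0.60 at 96 h (1.52-fold), and their mean was 1.18 (SE 0.68, limma adjusted p = 0.778). The knockdown effects of the 2 IFIT2 probes were 0.11 apart at 48 h and 0.03 apart at 96 h. These gaps were not tested. The mean was 0.23 without the ALKBH3 shRNA array at 48 h and 2.12, past the cutoffs, without that at 96 h.

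IFIT5, the member that binds phosphorylated RNA ends, had the smallest log2 fold change. Its processed signal was 2300 in the control and 5820 in the knockdown cells at 48 h, and 2217 and 3407 at 96 h, with log2 signals of 0.10 and 1.35 and of -0.08 and 0.51 that did not overlap between the shRNAs. The difference was 1.25 at 48 h (2.38-fold) and 0.59 at 96 h (1.5-fold), and the log2 fold change of 0.92 (SE 0.30, limma adjusted p = 0.599) stayed under the 2-fold limit. It was 0.50 without the ALKBH3 shRNA array at 48 h, and passed the cutoffs without the control array at 48 h (1.01) or the ALKBH3 shRNA array at 96 h (1.34).

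**Figure D2:**
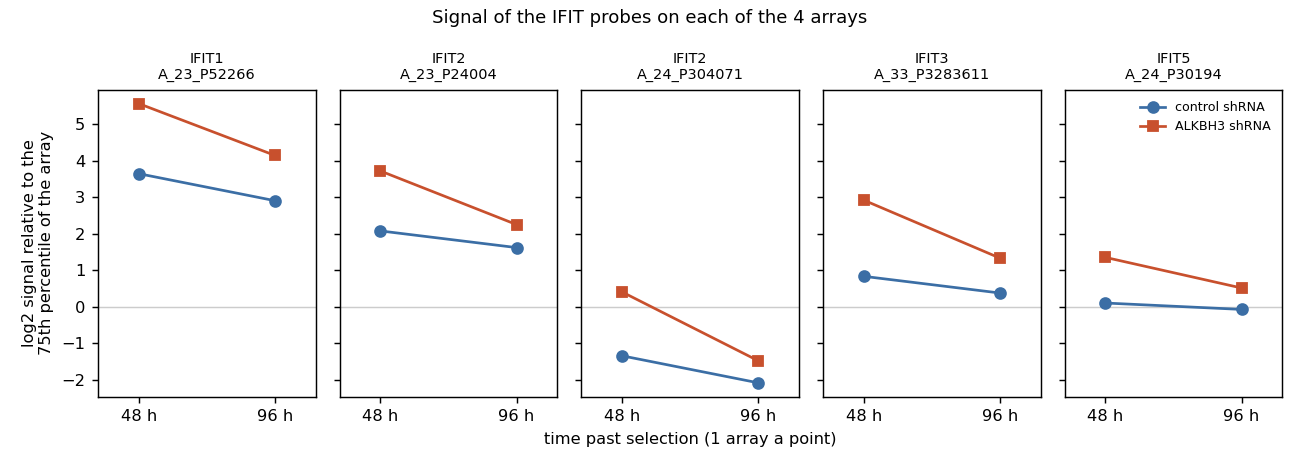
Log2 signal of the 5 IFIT probes relative to the 75th percentile of each array, for control shRNA (circles) and ALKBH3 shRNA (squares) at 48 h and 96 h, with 1 array a point and therefore no error bars. The ALKBH3 shRNA line lies above the control line in every panel, and both lines go down from 48 h to 96 h.

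Counted over the family, 2 of 5 probes were higher past the cutoffs, compared with 0.886% of the 23244 probes fitted (206 probes). On 4 of 5 probes both ALKBH3 shRNA arrays lay above both control arrays, against 17.4% of all probes. At 48 h all 5 were at least 2-fold higher and at 96 h only IFIT1 was, against backgrounds of 1.65% and 1.32%. The median log2 fold change of the 5 probes was 1.18, and that of all probes was 0.003.

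No probe of the 23244 passed an adjusted p of 0.05 in the limma fit without covariates (smallest 0.0917), although 1780 had an unadjusted p below 0.05. The paper's methods name limma for the arrays, and a Student test only in their general section on statistics. That test, called the methods' Student test here, gave 0 and 1632 on these arrays. When the time point was included as a replicate block, the limma adjusted p was 0.0371 for IFIT1, 0.0674 for IFIT3, 0.0732 for IFIT5, and 0.0929 and 0.106 for the IFIT2 probes A_23_P24004 and A_24_P304071. IFIT1 alone among the members thus passed with the block, where 1.97% of all probes were higher at that level. The SE of IFIT1 was 0.54 without the block, where the change between time points counts as spread, and 0.18 with it. The count of 2 members past the cutoffs rested on single arrays, as it was 0 without the ALKBH3 shRNA array at 48 h, 0 without the control array at 96 h and 5 without the ALKBH3 shRNA array at 96 h. It was also 0 with the methods' Student test and without a filter on dim probes, and 4 with the block.

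The difference between the shRNAs was larger at 48 h than at 96 h for all 5 probes, while 17.0% of all probes were higher at both time points and more so at 48 h. IFIT1 retained 64.6% of its 48 h difference on the log2 scale, IFIT5 46.9%, IFIT3 45.9%, and the IFIT2 probes 38.4% and 34.6%. The 2 effects differed by 1.15 and 1.01 for the IFIT2 probes, 1.13 for IFIT3, 0.68 for IFIT1 and 0.66 for IFIT5, with a median of 1.01 beside -0.02 for all probes. With 1 array for each shRNA and time point, the difference between the effects could not be tested.

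Control cells also had less IFIT signal at 96 h than at 48 h. The change was -0.74 for IFIT1, -0.46 and -0.74 for the IFIT2 probes, -0.46 for IFIT3 and -0.18 for IFIT5, and 50.2% of all probes were lower at 96 h in control cells. In ALKBH3 shRNA cells the same change was -1.42 for IFIT1 (2.68-fold lower), -1.47 and -1.89 for IFIT2 (2.77-fold and 3.70-fold), -1.59 for IFIT3 (3.01-fold) and -0.84 for IFIT5 (1.79-fold). All probes but that of IFIT5 were therefore at least 2-fold lower at 96 h with ALKBH3 shRNA, a size reached by 1.51% of all probes.

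For IFIT1, IFIT3, IFIT5 and IFIT2 probe A_23_P24004 the order of the levels was ALKBH3 shRNA at 48 h, ALKBH3 shRNA at 96 h, control at 48 h and control at 96 h. The middle pair was reversed on IFIT2 probe A_24_P304071. The top level stood 0.84 to 1.75 above the next. The smallest steps were 0.14 and 0.17 between the middle pair on the IFIT2 probes and 0.18 between the control arrays for IFIT5, and the order of these neighbours is not settled with 1 array for each.

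**Figure D3:**
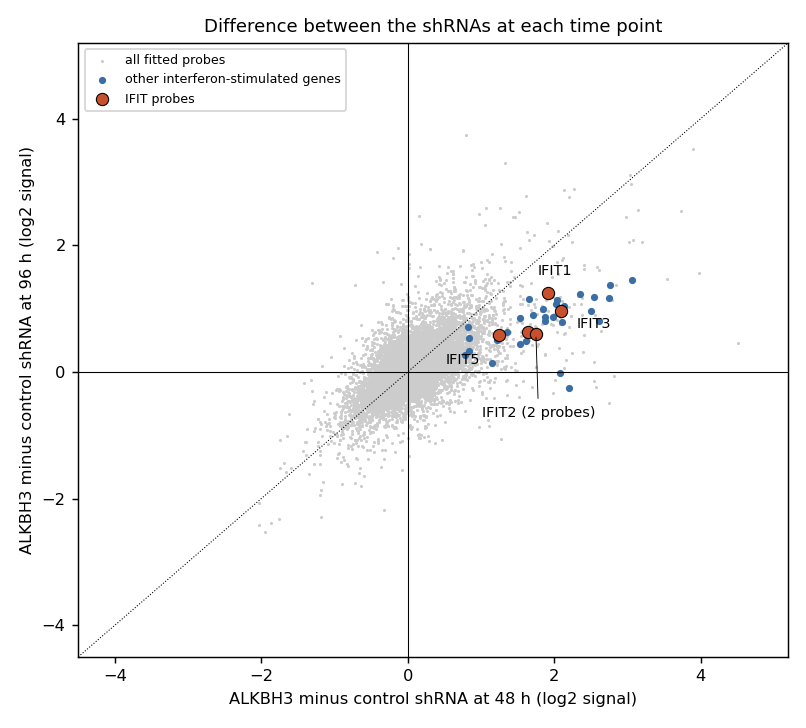
Log2 difference between ALKBH3 and control shRNA at 48 h (x axis) and at 96 h (y axis) for all 23244 fitted probes (grey), 29 other interferon-stimulated genes (blue) and the 5 IFIT probes (red). The IFIT probes lie right of the dotted line of equal effects, between 1.25 and 2.09 at 48 h and between 0.59 and 1.24 at 96 h.

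The surrounding pathway was read from lists of its genes, with the brightest tested probe for each gene. Over all 14556 genes tested, 1.06% were higher and 0.240% lower past the cutoffs, and the median log2 fold change was -0.003. The lists were drawn up with earlier results of these arrays known, so that their counts are descriptions.

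Among the ligands, 6 of 20 type I and III interferon genes were tested and 0 passed the cutoffs, with a median log2 fold change of 0.35. IFNB1, which encodes interferon beta, was well above background on 1 array only and was not tested. IFNL1, a type III interferon, differed by 1.09 at 48 h and 0.60 at 96 h (limma adjusted p = 0.529). It was well above background on 1 control array only and entered the tests through the ALKBH3 shRNA arrays, where it was higher. Of the 6 tested ligands, 3 were dim on at least 1 control array. The median of 0.35 therefore rests partly on control signals that were not well above background. IFNL2 differed by 1.32 at 48 h and 0.08 at 96 h. The median was 0.16 without the ALKBH3 shRNA array at 48 h, 0.19 and 0.59 without the control array at 48 h and at 96 h, and between -0.01 and 0.16 with normexp, quantile normalization, the authors' values or detection on all 4 arrays. The count of 0 was 3 without the ALKBH3 shRNA array at 96 h, and 1 without the control array at 96 h or without a filter on dim probes.

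The receptors and their signalling proteins were all tested and 0 of 9 passed, with a median of 0.13. Both chains of the type I receptor were close to 0, with log2 fold changes of -0.07 for IFNAR1 and 0.01 for IFNAR2, and the kinase JAK1 was at -0.02. Of the transcription factors that act on IFIT promoters, STAT2 differed by 0.71 at 48 h and 0.10 at 96 h, and IRF9 by 0.36 and 0.37. The count was 1 with time point as a block, with the authors' values and without the control array at 48 h or the ALKBH3 shRNA array at 96 h, and the median was -0.04 without the ALKBH3 shRNA array at 48 h and 0.02 without the control array at 96 h.

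Among the RNA sensors, adaptors and kinases, 3 of the 11 tested were higher past the cutoffs and 0 lower, with a median of 0.22. That median was 0.52 and 0.44 without the ALKBH3 shRNA array at 48 h and at 96 h, and 0.43 without a filter on dim probes. The 3 genes past the cutoffs are sensors of viral RNA, and each shared the larger difference at 48 h with the IFIT genes. RIGI, which detects RNA ends with a triphosphate, differed by 1.73 at 48 h and 1.07 at 96 h. IFIH1, the sensor of long double-stranded RNA in the cytoplasm, differed by 2.08 and 0.87, and TLR3, its endosomal counterpart, by 2.80 and 1.13. The count of 3 was 1 without the ALKBH3 shRNA array at 48 h or without a filter on dim probes, and 0 without the control array at 96 h or with the methods' Student test. Of the genes short of the cutoffs, EIF2AK2 had a log2 fold change of 0.87 and IRF7 of 0.76. The rest lay between -0.17 and 0.22, among them the adaptor MAVS (-0.08) and the transcription factor IRF3 (-0.17).

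Of 30 other interferon-stimulated genes 29 were tested, and 13 were higher and 0 lower past the cutoffs, with a median log2 fold change of 1.37. These 13 were the antiviral GTPases MX1 and MX2, the oligoadenylate synthetases OAS1 and OAS3, IFI6, IFI44, IFI44L, the ISG15 ligase HERC5 and its relative HERC6, IFITM1, SAMD9, the helicase DDX60 and LGALS3BP. At 48 h 25 of the 29 were at least 2-fold higher and at 96 h 9 were, against 1.88% and 1.46% of all genes. Between 8 and 23 of the 29 genes had a larger log2 fold change than a given IFIT probe, 8 for IFIT1, 10 for IFIT3, 18 for each IFIT2 probe and 23 for IFIT5, so the IFIT family lay within the range of this list. The count of 13 was 3 without the ALKBH3 shRNA array at 48 h (median 0.66), 5 without the control array at 96 h, 27 without the ALKBH3 shRNA array at 96 h and 0 with the methods' Student test.

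The share of the 48 h difference left at 96 h was also within that range, with a median of 46.3% over the 29 genes and 45.9% over the IFIT probes. IFIT1 stood near the top of the list by this measure, as only 2 of the 29 genes kept more of their difference. In the list, XAF1 (2.20 at 48 h and -0.25 at 96 h) and TRIM22 (2.08 and -0.02) kept none of it, which was true of no IFIT probe. As the RNA came from whole cultures, fewer responding cells and less RNA per cell cannot be told apart.

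Of 6 feedback inhibitors 0 passed the cutoffs, with a median of 0.21. USP18, which removes ISG15 and dampens receptor signalling, had a difference of 1.65 at 48 h and 0.51 at 96 h, nearly the values of IFIT2 probe A_23_P24004. The count of 0 was 1 with the block, with normexp, with the authors' values and without the ALKBH3 shRNA array at 96 h, and the median was 0.06 without the ALKBH3 shRNA array at 48 h. The enzymes that methylate the cap, the mark that IFIT1 reads as self, and the eIF3 subunits, to which IFIT proteins can bind, numbered 17 and 0 passed, with a median of 0.04. CMTR1, the cap ribose methyltransferase, was at 0.51 on this scale (limma adjusted p = 0.637), EIF3C at 0.08 and EIF3E at -0.05.

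**Figure D4:**
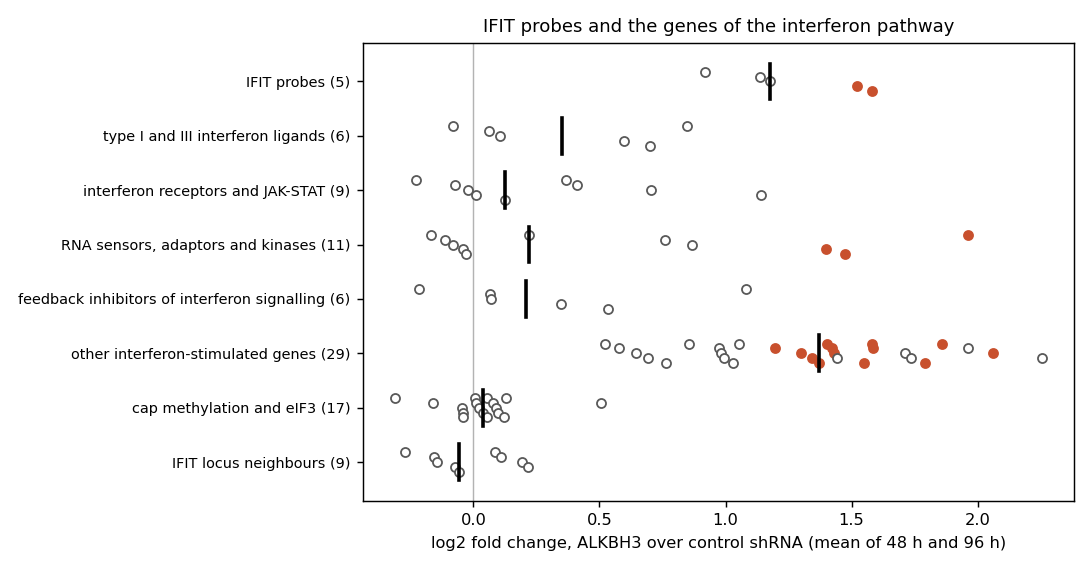
Log2 fold change of ALKBH3 over control shRNA, the mean of both time points, for the 5 IFIT probes and the tested genes of 7 lists, with the number tested in parentheses, filled points for those past the cutoffs and a black bar at the median. The IFIT probes (median 1.18) overlap the other interferon-stimulated genes (median 1.37), while the medians of the remaining lists lie between -0.06 and 0.35.

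The 4 IFIT genes stand side by side on chromosome 10, between LIPA and SLC16A12, with IFIT1B among them. Of 14 genes around them, IFIT1B included, 9 were tested and 0 passed the cutoffs, with a median log2 fold change of -0.06. Their values ran from -0.27 for PANK1 to 0.22 for STAMBPL1, with 0.11 for LIPA and 0.09 for SLC16A12, the next genes on each side. The others were FAS at 0.19, LIPN at -0.06, KIF20B at -0.07, ACTA2 at -0.14 and LIPM at -0.16. At single time points FAS reached 0.54 at 48 h and ACTA2 -0.42 at 96 h, still short of the smallest IFIT difference of the same time point in size. IFIT1B was well above background on 1 array, and CH25H, ANKRD22, LIPF and LIPK on 0, so these were not tested. Without the ALKBH3 shRNA array at 96 h 1 neighbour passed and the median was 0.09, and without a filter on dim probes 1 passed.

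**Figure D5:**
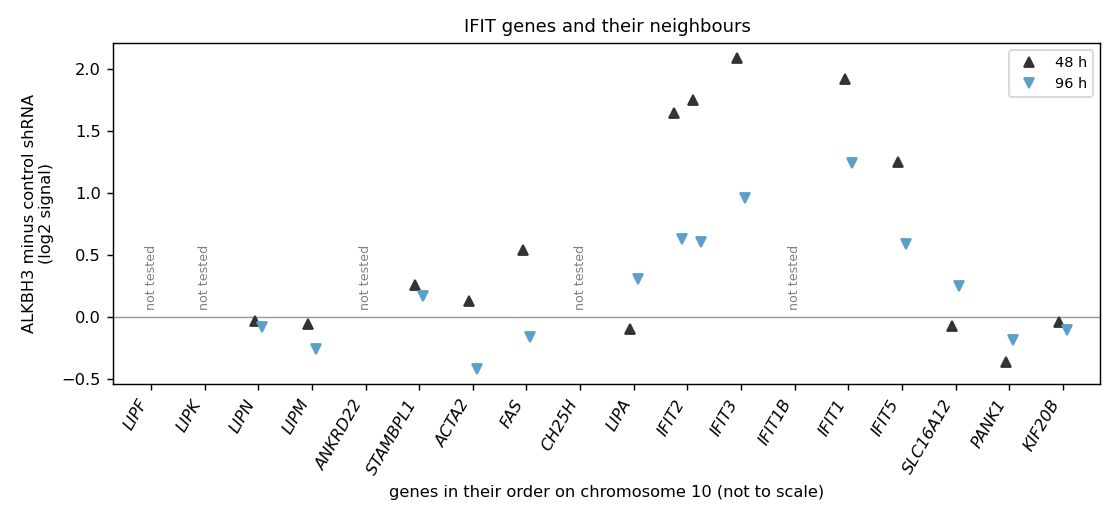
Log2 difference between ALKBH3 and control shRNA at 48 h (upward triangles) and 96 h (downward triangles) for the IFIT genes and 14 genes around them, in their order on chromosome 10 and not to scale. The 5 IFIT probes lie between 0.59 and 2.09, and the other tested genes lie between -0.42 and 0.54.

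The genes whose pattern over the 4 arrays was most like that of a member were found by the distance between log2 signals centred on each gene, among 3441 genes that varied. For IFIT1 these were IL4I1 and IFI16 (both at a distance of 0.059), SAMD9 (0.143), RIGI (0.184) and MX1 (0.202). IFIT3 was nearest to DDX60 (0.103), IFIH1 (0.108), SAMD9L (0.131), HERC6 (0.131) and SAMD9 (0.133). For IFIT2 the list was USP18 (0.087), TMEM140 (0.134), UBE2L6 (0.147), PLEKHA4 (0.155) and IFITM1 (0.193), and for IFIT5 it was LY6E (0.099), LAP3 (0.101), TUFT1 (0.108), TDRD7 (0.139) and ERLN (0.150). Within the family IFIT1 and IFIT3 were closest, at 0.240, and IFIT1 and IFIT5 farthest, at 0.876. Every member had nearer genes outside the family, but those were the nearest of 3441 candidates, set against the other members of a family of 4. With pools of such unlike size, this does not show how alike the members were. With 4 points a gene, such likeness is only a description, and a correlation in place of the distance shared 3 of these 20 genes.

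The cell type was checked against marker lists. All 5 epithelial markers were well above background on all 4 arrays, whereas KLK3, a marker of luminal prostate cells, was on 0. The 6 leukocyte markers were also above background on all 4 arrays, with log2 fold changes of -0.09 to 0.23 and 0 of them past the cutoffs. Their processed signals included 81.6 to 101 for PTPRC, which all leukocytes carry, and 1010 to 1645 for CD68, a macrophage marker. Of 5 markers of virus producer cells and fibroblasts, NEFM and COL1A2 were above background on 0 arrays and the other 3 on all 4. NEFL was bright, with a processed signal of 41979 to 51522, and had a log2 fold change of -0.16. COL1A1, a collagen chain, differed by 0.52 at 48 h and 0.90 at 96 h, and DCN, a matrix proteoglycan, by 0.56 and 0.74, and neither passed the cutoffs. EPCAM stood highest of all marker genes at 0.98 and did not pass (limma adjusted p = 0.452). Whether the differences of EPCAM, COL1A1 and DCN bear on the IFIT values was not tested.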

How the data were processed

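RNA of PC3 cells was hybridised to 4 single-colour Agilent arrays, 1 per combination of shRNA and time. The authors deposited the processed intensity of every spot, background-corrected on its own array by Agilent Feature Extraction (version 10.7.3.1 per the file headers) without normalization between arrays. They also deposited a table of normalized log2 values, used here as an alternative only. Control spots and 180 to 379 outlier spots an array were removed. Intensities were converted to log2, centred on the 75th percentile of the array and averaged over the spots of a probe. Probes were named through RefSeq accessions (24910 of 34127), and the design annotation of the array was not used here. A probe entered the tests if both arrays of either shRNA read it well above background (23260), of which 23244 had a value on every array. R 4.3.3, limma 3.58.1 (lmFit, eBayes, two-sided, with Benjamini-Hochberg adjustment over all probes) and the data.table package (1.17.8) were used. The fit without covariates was tested on simulated data with independent noise on each array. The pairing of arrays by time point was not simulated, and the fit with the block was not tested in this way.

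Called probes had a 2-fold change of the mean and an unadjusted p below 0.05. Differences at single time points rest on a single array each side and were not tested. Precision is limited by the number of arrays. The 2 arrays of a time point share its label and a slide, and the deviations of paired arrays from their group means correlated at r = 0.660 across probes, so the fit with time point as a replicate block is given too. The alternatives comprised quantile normalization, normexp background correction (offset 50) alone or followed by it, median centring, the percentile over probes detected on all arrays, the authors' values, other filters on dim probes, 1 probe a gene, averaging all probes per gene, the block, the methods' Student test, a 1.5-fold cutoff and leaving out each array. The members and lists were chosen with earlier results of these data known. The text names the members, ALKBH3, list genes past the cutoffs, and the main ligands, receptors and signalling genes. It also names tested neighbours and the 5 nearest genes of each member. IFNL2, MAVS, IRF3, IRF7, EIF2AK2, XAF1 and TRIM22 were added after their values were seen. Some items of the lists are not reported here.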

Additional observations from a re-analysis of the deposited data

How the results depend on the processing

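All 5 IFIT probes were higher with ALKBH3 shRNA in every alternative run. Among the lists, medians near 0 changed sign, that of the locus neighbours (-0.06) to 0.09 without the ALKBH3 shRNA array at 96 h, 0.02 without the control array at 48 h and 0.02 without a filter, that of the receptors (0.13) to -0.04 without the ALKBH3 shRNA array at 48 h, and that of cap methylation and eIF3 (0.04) to -0.01 without the ALKBH3 shRNA array at 96 h. The median of the ligands (0.35) became -0.01 with normexp. Leaving out single arrays moved the log2 fold change from 0.87 to 2.29 for IFIT1, 0.73 to 2.32 for IFIT3, 0.50 to 1.34 for IFIT5, and 0.40 to 1.87 and 0.23 to 2.12 for the IFIT2 probes A_23_P24004 and A_24_P304071. The number of IFIT probes past the cutoffs then ran from 0 to 5. The number of other interferon-stimulated genes past them ran from 3 to 27 and their median from 0.66 to 2.05. With the methods' Student test IFIT1 (1.58) and IFIT3 (1.52) missed the cutoffs, and 0 IFIT probes and 0 of the other interferon-stimulated genes passed. The same 2 missed them without a filter on dim probes, leaving 0 IFIT probes. IFIT2 probe A_23_P24004 passed with normexp background correction (1.19), with quantile normalization after it (1.19) and with the authors' values (1.20). With time point as a replicate block both IFIT2 probes passed the cutoffs at unchanged log2 fold changes of 1.14 and 1.18, giving 4 IFIT probes. The cause of these shifts was not tested.

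Over all probes, 206 were higher and 54 lower past the cutoffs. These numbers were 78 and 27 with normexp, also after quantile normalization, 495 and 113 without a filter, 60 and 25 with the methods' Student test and 595 and 292 at 1.5-fold. With the authors' values 118 were higher, and with detection on all 4 arrays 123. With 1 probe a gene 34 were lower, and 31 after averaging all probes per gene. Leaving out single arrays gave 244 to 506 higher and 52 to 134 lower. By correlation in place of distance, 3 of 20 nearest genes were shared. The differences at single time points kept their sign in all 6 scalings tried. The lowest 96 h value was 0.32, for IFIT2 probe A_24_P304071, and no scaling moved the median of all probes by more than 0.1. With 1 array for each shRNA and time point, neither a change over time nor a difference between the effects has a replicate.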
